A study of Homo sapiens with 4 samples.

Results

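The interferon regulatory factor (IRF) genes are described here by their H3K27Ac occupancy in MOLM13 cells, which come from a human AML with MLL1-r, before and after exposure to SNDX-50469, a small-molecule inhibitor of Menin. The genes were taken by name and not by a cut on any measured value, although earlier results of these data were known. They were IRF1, IRF2, IRF3, IRF4, IRF5, IRF7, IRF8 and IRF9, which are 8 of the 20037 protein-coding genes of the annotation. One library came from cells given 500 nM SNDX-50469 for 16 h. The other was the control, whose label gives the treatment as none, while the treatment description names DMSO. Both come from the same line, so they share its MLL1 fusion. Each library is a single ChIPmentation sample, in which the transposase Tn5 adds adapters to chromatin bound by the antibody. The 2 input libraries were not analysed here.

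Members of the IRF family share an N-terminal DNA-binding domain that reads GAAA repeats in the promoters of interferon and interferon-induced genes. IRF3, IRF5 and IRF7 lie dormant until kinases downstream of Toll-like receptors, STING or RIG-I phosphorylate them. IRF9 is the DNA-binding part of the complex that answers type I interferon. IRF1 is itself induced by interferon gamma, and IRF2 competes with it for the same sites. IRF4 and IRF8 bind DNA poorly alone and pair with PU.1 (encoded by SPI1) or BATF at composite elements. IRF8 is the member that directs monocyte and dendritic cell fate and restrains granulocyte output, and IRF4 is best known from B cells, plasma cells and T cells. H3K27Ac marks active promoters and enhancers.

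The 2 lists of broad peaks differed strongly in size. The control list held 245875 peaks over 224 Mb, and the SNDX-50469 list held 54061 peaks over 29.4 Mb, which is 13.1% of the control length. Read totals are not in the lists, so the depth of each library is unknown. The lists also began at different strengths, with a smallest −log10 p of 2.68 in control and 3.93 after SNDX-50469, and the part of depth or of peak calling in the shorter list was not tested. Each condition is a single library, so the spread between replicates is not known and no difference was tested. Over a stretch of genome, the covered length is the number of bases under peaks, and the kept share is the percentage of the control covered length that also lay under SNDX-50469 peaks. Of the whole control length, 9.71% was kept. Peak heights were not set against each other between the lists, because each fold refers to the background of the library it was called in. All 11 myeloid leukaemia markers looked up (among them SPI1, CEBPA, MPO, FLT3 and HOXA9) had control peaks within the gene and 5 kb on both sides, over 7766 to 95092 bp. So did 15634 of the 20037 protein-coding genes, with a median of 5834.5 bp, so the count alone says little about cell type. Markers of other cell types were not free of the mark. They had 3096 to 9490 bp for T cells, 253 to 12129 bp for B cells and 0 (EPCAM) to 18346 bp (CDH1) for epithelial cells. For erythroid cells they had 0 (HBB) to 455 bp, and for liver 0 (ALB) to 2109 bp.

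Following SNDX-50469 treatment, the covered length over the gene with 5 kb on both sides was lower at 8 of 8 IRF genes. This count is near the background, since 98.1% of all 15634 genes that had a control peak were lower by the same measure. The family had 125547 bp under control peaks and 9060 bp under SNDX-50469 peaks, with 6.51% kept. The median of the 8 kept shares was 4.24%, beside a median of 2.37% and a summed share of 11.6% over all genes. By number, 9 of 86 control peaks shared at least 1 bp with the treated list (10.5%, Wilson 95% interval 5.60 to 18.7%). Such an interval covers counting error alone, and peaks next to each other are not independent. Nothing was kept at 3 of 8 genes (IRF4, IRF7 and IRF9), where the background is 44.8%. With the weaker control peaks left out until both lists covered the same length, 4 of 8 genes were lower (IRF1, IRF2, IRF3 and IRF8), beside 17.6% of the same 15634 genes, IRF4 and IRF5 had only treated peaks, and IRF7 and IRF9 had none in either list.

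**Figure D1:**
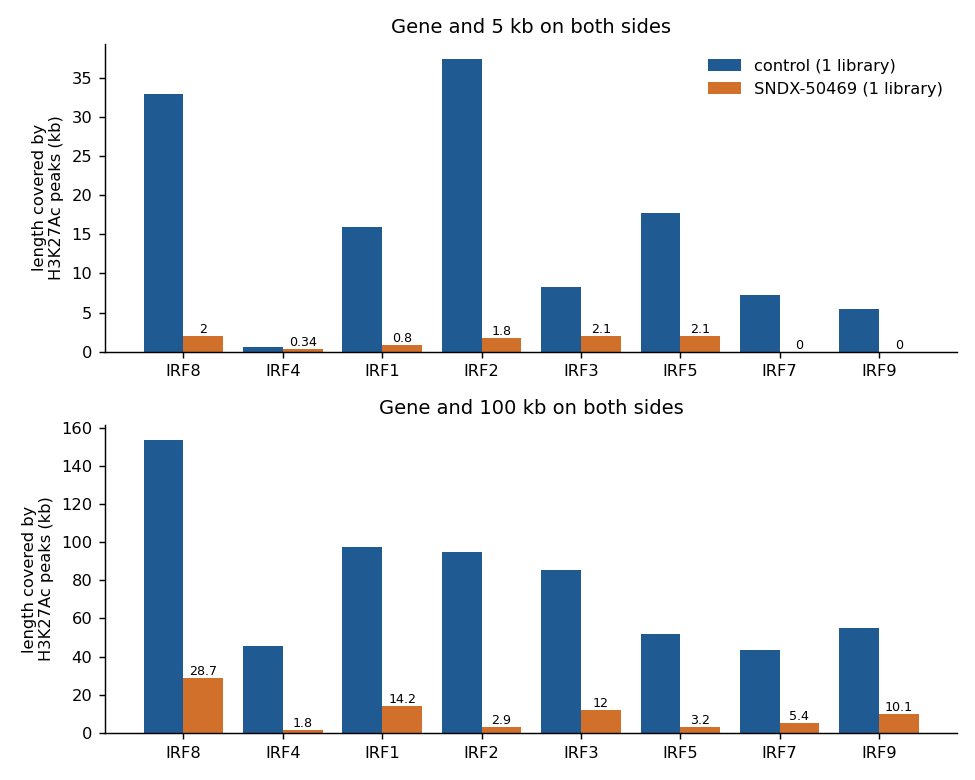
Length covered by H3K27Ac peaks (kb) in the 1 control and the 1 SNDX-50469 library at each IRF gene, with 5 kb on both sides (upper panel) and 100 kb on both sides (lower panel). Bars are single libraries without error bars, and the numbers stand over the SNDX-50469 bars. Every SNDX-50469 bar is shorter than its control bar, and IRF8 has the longest bar of both libraries in the lower panel.

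The genes started from very different control levels. IRF2 had 37468 bp and IRF8 32913 bp under control peaks, more than 94.5% and 93.3% of genes. IRF5 had 17698 bp, IRF1 15948 bp, IRF3 8278 bp, IRF7 7201 bp and IRF9 5503 bp. IRF4 stood at the other end with 538 bp, and only 9.55% of genes with a control peak had less. After treatment the covered lengths lay close together, at 2061 bp for IRF3, 2057 bp for IRF5, 2040 bp for IRF8, 1765 bp for IRF2, 802 bp for IRF1, 335 bp for IRF4 and 0 for IRF7 and IRF9. The order of the kept shares was therefore not the order of the control levels. IRF3, a constitutively expressed factor, kept 22.6%, IRF5 10.7%, IRF8 6.20%, IRF2 4.71% and IRF1 3.77%. With single libraries no spread is at hand to say which neighbours in that order differ.

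The wider window of 100 kb on both sides gave a different picture of the family. Covered length was again lower at 8 of 8 genes (background 98.6%), and 12.1% of 626706 bp was kept, beside a summed 11.8% over all genes. The median share was 12.8%, beside 6.76% over all genes. IRF8 had the most in both libraries, with 153571 bp in control and 28690 bp after treatment, and it kept 18.7%. IRF9 kept 17.0%, IRF1 14.4%, IRF3 13.7%, IRF7 12.0%, IRF5 5.77%, IRF4 2.75% and IRF2 2.51%. Outside the gene, from 5 to 100 kb, IRF8 kept 22.1%, which ranked 1804th of the 18183 genes with a distal control peak. Distal covered length was lower at 8 of 8 genes (background 98.5%), and 0 of 8 kept nothing there (background 29.3%). The background is not matched for control length. The distal control lengths of the 8 genes exceeded those of 65.8% (IRF5) to 99.2% (IRF8) of genes. In the 100 kb window the range was 65.6% (IRF7) to 98.9% (IRF8). Both windows also take in the promoters of neighbouring genes. IRF8 held 26650 of the 67414 distal bases that the family kept, and without it the distal share of the family was 10.7% instead of 13.5%, beside 11.8% over all genes.

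IRF8 lies at chr16:85899162-85922609 on the plus strand of hg38. Its promoter, its whole body and a long stretch beyond its 3′ end lay under nearly unbroken H3K27Ac in control. A run of 3 wide peaks, each reaching a −log10 q of 5, spanned 89.7 kb. They covered 86247 bp of it, and a weaker peak of 1213 bp between the last 2 brought the total to 87460 bp. The first, chr16:85897906-85941197, was 43.3 kb wide (the 35th widest of the control list) and held the promoter and the gene. The next, chr16:85941517-85970927, was 29.4 kb wide. The last, chr16:85974105-85987648, was 13.5 kb wide, lay 74.9 to 88.5 kb from the 5′ end, and with a fold of 13.2 ranked 41st by p among all control peaks.

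Within this run the retained bases lay past the gene. From the start of the run to the 3′ end of IRF8, 206 of 24704 bp (0.834%) were kept, as a single short peak 1.40 kb inside the gene. Past the 3′ end, 25818 of 62756 bp (41.1%) were kept. The 5′ end of IRF8 lay under no SNDX-50469 peak. The first wide peak kept 26.4%, the next 14.7% and the last 76.0%. By zone, the kept share was 7.83% from 100 to 50 kb upstream, 1.90% from 50 to 5 kb upstream, 6.20% over the gene with 5 kb on both sides, 31.0% from 5 to 50 kb downstream and 59.0% from 50 to 100 kb downstream. The upstream side was not bare in control, with a 15.4 kb peak at chr16:85846332-85861735 (fold 7.35) of which 2.68% was kept.

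Of all 54061 SNDX-50469 peaks, 30804 shared at least 1 bp with a control peak. The SNDX-50469 list held 19 peaks within 100 kb of IRF8, and all of these 19 lay inside control peaks. Control peaks covered 153571 bp of this window (the 23448 bp gene and 100 kb on both sides), far more densely than the whole genome. All 16 treated peaks within 100 kb of IRF1 touched control peaks too. The strongest treated peak at IRF8 was chr16:85976628-85985880, 9.25 kb wide with a fold of 7.28, ranked 197th of 54061 by p and placed 77.5 to 86.7 kb from the 5′ end. It was the 1 treated peak of this window whose −log10 q reached 5. The next were chr16:85927433-85933579 (6.15 kb, fold 5.05), 28.3 to 34.4 kb from the 5′ end and so past the gene, and chr16:85925600-85926490 (0.891 kb, fold 4.76). Together with chr16:85934029-85937287 (3.26 kb, fold 4.34) they form a group 26.4 to 38.1 kb from the 5′ end. A further group of 5 weak peaks (folds of 3.61 to 3.85) lay 43.0 to 49.8 kb from the 5′ end. On the upstream side the widest treated peak, 2.04 kb, lay at the shared start of COX4I1 and EMC8, which are housekeeping neighbours. Its near edge was 97.9 kb from the 5′ end of IRF8. Of the distal bases kept at IRF8, 7.66% lay within 5 kb of the 5′ end of another protein-coding gene.

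The retained stretches downstream of IRF8 hold the annotated starts of 3 non-coding RNA genes, and these are shown because their start windows lay wholly under peaks of both lists. LINC02132 (898 bp) and LOC124903741 (7882 bp) were covered over their full length in both libraries, and LOC105371388 kept 36.4% of 4257 bp. The 250 bases before each start, from RefSeq on GRCh38.p14, lie at chr16:85936175-85936424 (minus strand), chr16:85945129-85945378 (plus strand) and chr16:85985298-85985547 (minus strand). They are written 5′ to 3′ on the strand of each gene.
LINC02132: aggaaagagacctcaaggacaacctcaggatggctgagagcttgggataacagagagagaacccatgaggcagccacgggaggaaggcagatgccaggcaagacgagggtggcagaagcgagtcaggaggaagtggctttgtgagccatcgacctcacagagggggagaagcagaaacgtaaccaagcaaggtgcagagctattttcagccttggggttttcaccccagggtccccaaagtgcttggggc
LOC105371388: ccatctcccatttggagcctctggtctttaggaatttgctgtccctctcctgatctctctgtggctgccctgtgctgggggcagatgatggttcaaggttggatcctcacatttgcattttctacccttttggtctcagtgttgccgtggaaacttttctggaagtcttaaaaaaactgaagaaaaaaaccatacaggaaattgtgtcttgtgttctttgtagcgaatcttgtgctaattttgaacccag
LOC124903741: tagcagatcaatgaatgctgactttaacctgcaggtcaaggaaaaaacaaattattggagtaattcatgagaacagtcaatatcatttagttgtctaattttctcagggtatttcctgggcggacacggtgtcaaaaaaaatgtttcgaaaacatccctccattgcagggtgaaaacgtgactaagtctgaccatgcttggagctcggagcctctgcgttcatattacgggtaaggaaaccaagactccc
Both strands of these windows were searched for an interferon response element (GAAANNGAAA) and the composite element of PU.1 with IRF4 or IRF8 (GGAANNGAAA). These letters were in none of the 3 windows, and they occur in 3.02% and 2.41% of 35116 RefSeq start windows of the same length.

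**Figure D2:**
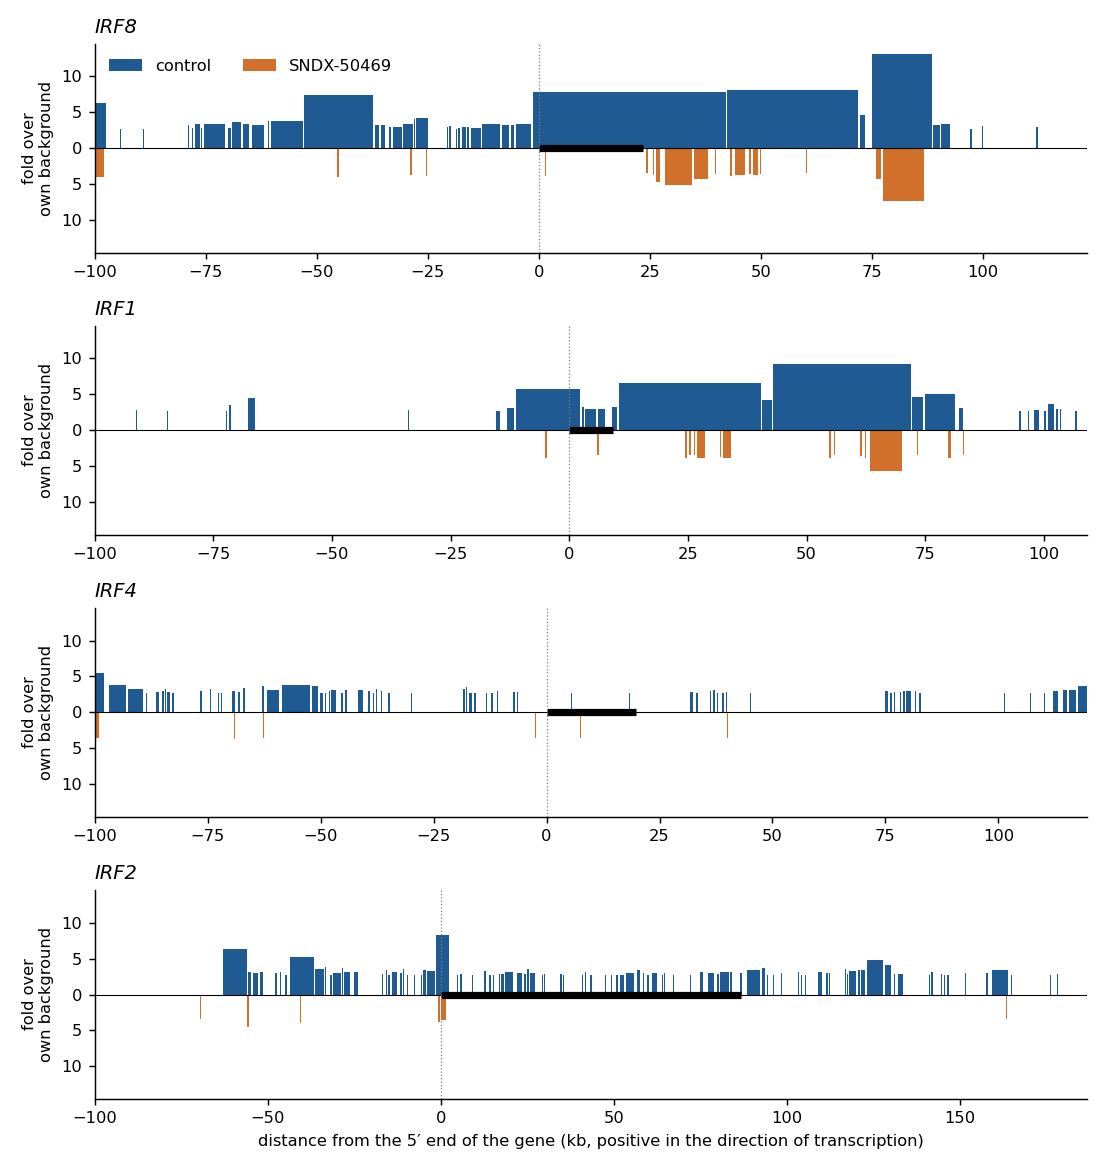
Peaks of both libraries over IRF8, IRF1, IRF4 and IRF2 and 100 kb on both sides. Each block is 1 peak, drawn over its extent by distance from the 5′ end of the gene (kb, positive in the direction of transcription, peaks under 0.25 kb drawn at that width), with its height showing the fold over the background of its own library, upward for control and downward for SNDX-50469. The thick line is the gene. Downward blocks at IRF8 and IRF1 lie mainly past the 3′ end, and IRF4 and IRF2 have 6 SNDX-50469 peaks each. Heights are not comparable between the libraries.

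IRF4 (chr6:391752-411443, plus strand), the closest relative of IRF8, had almost no H3K27Ac near the gene in control. Its 2 control peaks in the 5 kb window made up the 538 bp, and both had a fold of 2.66, the smallest of the control list. No control peak lay within 5.45 kb of the 5′ end. The treated list had 2 peaks of 164 and 171 bp there. Neither touched a control peak, while 30804 of the 54061 treated peaks of the whole list did. The start window of IRF4 is shown as a promoter without a peak in either list (chr6:391502-391751, plus strand, RefSeq, GRCh38.p14), and it holds neither motif.
IRF4: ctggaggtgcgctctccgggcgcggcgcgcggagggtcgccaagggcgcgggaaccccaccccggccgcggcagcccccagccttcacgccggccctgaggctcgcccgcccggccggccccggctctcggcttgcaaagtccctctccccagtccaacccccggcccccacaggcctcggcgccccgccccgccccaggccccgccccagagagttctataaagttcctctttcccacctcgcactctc
From 5 to 100 kb outside, IRF4 had 44839 bp under control peaks, spread over 65 mostly short peaks, and kept 2.78%. The 1 control peak to reach a −log10 q of 5 was at the start of DUSP22, a phosphatase gene, at the far edge of the window (chr6:291334-293894, fold 5.48). The widest treated peak (0.712 kb) fell on the same start and made up 57.1% of the distal bases kept. Apart from that start, the kept bases were 3 pieces, 108, 353 and 74 bp long.

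IRF2 (chr4:184387729-184474550, minus strand) is the longest gene of the family (86822 bp), and its control signal was of a different kind. It was spread over 44 peaks in the 5 kb window, against 2 at IRF8. The 1 strong peak lay over the 5′ end (chr4:184472214-184475991, 3.78 kb, fold 8.29, ranked 878th by p). Of it, 1765 bp (46.7%) were kept, as treated peaks of 1.37 kb and 0.397 kb on either side of the outermost start, which itself was 136 bp from the nearer one. IRF2-DT, the divergent non-coding transcript, begins within the same control peak. Over the rest of the gene, 0 of 40 control peaks were kept (Wilson 95% interval 0 to 8.76%). With the control list cut where the treated list begins, at its smallest −log10 p, the 5 kb window of IRF2 held 2 control peaks and its kept share was 41.7%. Nearly all of the 40 peaks were thus weaker than any treated peak. The 0 of 40 and its interval cannot tell a loss from the unlike cut-offs. Distally, IRF2 kept 1.07% of 57115 bp. The 2 distal control peaks of IRF2 that reached this −log10 q of 5 were chr4:184530512-184537553 (7.04 kb, fold 6.33), of which nothing was kept, and chr4:184511110-184518012 (6.90 kb, fold 5.18), of which 3.46% was kept. The strongest distal treated peak (0.488 kb, fold 4.48) lay at the edge of the former and shared no base with it.

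The 3 genes thus differed in where the kept bases lay. Of the 5 zones around each gene, IRF8 kept the most 50 to 100 kb downstream (59.0%). IRF4 kept the most 50 to 100 kb upstream (4.87%) and IRF2 over the gene with 5 kb on both sides (4.71%). In bases, 26650 were kept distally at IRF8, 1247 at IRF4 and 610 at IRF2. IRF8 was ahead of the other 2 under every peak threshold that gave a value. It stood at 12.4% when both lists were held to that −log10 q, beside 0% at IRF4 and IRF2, and at 35.5% when the control list was trimmed to the length of the treated list, beside 0% at IRF2 and no control base left at IRF4. Counting peaks with at least 50% of their length kept, 4.76% of the IRF8 distal peaks remained.

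The map of IRF1 was added after the values had been seen, because it had the second-longest distal covered length after treatment. IRF1 lies at chr5:132481609-132490773 on the minus strand. Its promoter lay under a 13.5 kb control peak (fold 5.81), and no treated peak came closer to the 5′ end than 4.62 kb. Downstream of the gene, 2 control peaks of 29.9 and 29.0 kb covered LINC02863 and most of CARINH, non-coding RNA genes between IRF1 and SLC22A5. The start of CARINH lay under a further control peak of 6.48 kb. They kept 13.7% and 28.8%. The strongest treated peak of the window, chr5:132420640-132427515, was 6.88 kb wide (fold 5.62, −log10 q of 5.04) and lay 63.3 to 70.1 kb from the 5′ end. LINC02863 kept 84.7% of 8002 bp, and none of the distal bases kept at IRF1 lay within 5 kb of the 5′ end of another protein-coding gene. By zone, IRF1 kept 11.0% from 5 to 50 kb downstream and 31.1% from 50 to 100 kb downstream, beside 2.40% and 0% in the zones of the same distances upstream.

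The 250 bases before the IRF1 start lay under a control peak only and held neither motif. At CARINH, a start window under peaks of both lists, the motif matches were 2 to the interferon response element, which overlap each other, and 30 bases around them are given with both in capitals (chr5:132410883-132410912, plus strand, RefSeq, GRCh38.p14).
CARINH: cggagggTTTCGCTTTCGCTTTCctgccga
A match of letters is a description of the window and was not tested for binding.

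Around the 5′ ends the family split by gene. Within 5 kb of the 5′ end, covered length was lower at 7 of the 7 genes with a control peak there (background 98.9%). In this range 10.7% of the summed control length was kept, beside 20.4% over all genes, and 3.42% over the rest of the IRF genes and their 5 kb flanks. The medians near the 5′ end went the other way, at 4.17% for these 7 genes and 1.85% over all genes. IRF2 (25.9% against 0%) and IRF5 (18.7% against 0.416%) kept more near the 5′ end. IRF3 kept 22.0% near it and 25.0% over the rest. IRF8 went the other way, with 2.18% near the 5′ end and 7.82% over the rest. The kept bases of that rest all lay in the 5 kb flank past the 3′ end, and the gene body of IRF8 kept 0.879%. At IRF7 and IRF9, 0 of 6 control peaks near the 5′ end were kept at each gene (Wilson 95% interval 0 to 39.0%), and 49.2% of genes with a control peak there kept nothing. With control cut at the smallest −log10 p of the treated list, each of these genes had 1 control peak left near the 5′ end, also not kept. The 0 of 6 therefore rests mostly on peaks weaker than any treated peak.

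**Figure D3:**
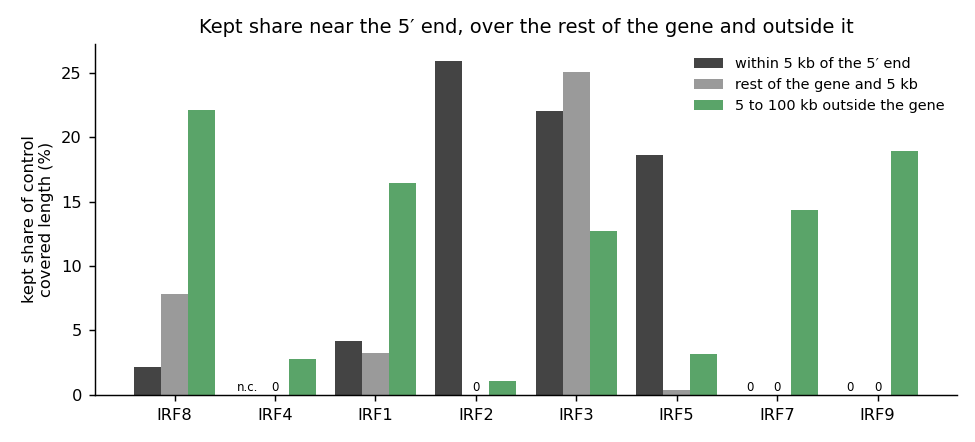
Kept share of the control covered length (%) at each IRF gene within 5 kb of the 5′ end, over the rest of the gene with its 5 kb flanks, and from 5 to 100 kb outside the gene. Bars come from 1 control and 1 SNDX-50469 library, 0 marks a share of 0, and n.c. marks the 5′ end of IRF4, which had no control peak. The outside bar is the tallest at IRF8 (22.1%), IRF9, IRF1, IRF7 and IRF4, and the 5′ bar at IRF2 (25.9%) and IRF5.

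IRF5 (chr7:128937032-128950038, plus strand), which drives inflammatory cytokine genes in myeloid cells, has several annotated starts. A control peak of 12.4 kb (chr7:128930617-128943013, fold 5.63) covered them all. The treated peak within it (chr7:128939794-128941659, 1.87 kb, fold 3.93) lay 2.76 to 4.63 kb past the outermost start. It covered the starts at 128940670 and 128941268 and not those at 128937927 and 128938217. The window before the start at 128940670 holds 1 match to the PU.1 and IRF composite element, and the 200 bases before it are given because they lay under both lists (chr7:128940470-128940669, plus strand, RefSeq, GRCh38.p14), with the match in capitals on the reverse strand.
IRF5: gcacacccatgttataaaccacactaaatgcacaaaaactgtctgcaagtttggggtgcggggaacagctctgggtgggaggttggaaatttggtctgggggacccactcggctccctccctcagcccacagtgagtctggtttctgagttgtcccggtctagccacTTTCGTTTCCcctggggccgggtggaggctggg
The same letters were in 2.41% of all start windows. Farther out, IRF5 kept 3.21% of 34213 bp, and no treated peak there reached a −log10 q of 5.

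IRF3 (chr19:49659572-49665857, minus strand) shares its 5′ region with BCL2L12, a gene on the opposite strand. It was the 1 gene of the family with a treated peak over its outermost 5′ end (1.19 kb, fold 4.06), inside a control peak of 3.35 kb (fold 6.88). A peak there cannot be assigned to either gene. SCAF1, within 5 kb on the other side, kept 42.0% of the 7221 bp that control peaks covered over its body.

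IRF7 (chr11:612555-615950, minus strand), the factor that amplifies interferon alpha production, had a 4.34 kb control peak over its 5′ end (fold 4.57). Its nearest treated peak was 28.3 kb away. IRF9 (chr14:24161265-24166565, plus strand) had a 1.21 kb control peak starting 46 bp past its 5′ end (fold 4.14), with the nearest treated peak 20.1 kb away. No control peak within 5 kb of either gene reached a −log10 q of 5. The 250 bases before the IRF9 start were under no peak of either list.
At IRF3, IRF7 and IRF9 the distal kept bases lay close to other genes. Of the distal bases kept, 99.2% at IRF9, 93.2% at IRF7 and 86.1% at IRF3 lay within 5 kb of the 5′ end of another protein-coding gene, where 22, 12 and 10 such neighbours lie within 100 kb. The strongest distal treated peaks there were 2.66 kb at IRF9 (fold 5.57), 1.96 kb at IRF7 (fold 6.44) and 2.39 kb at IRF3 (fold 6.79). At IRF8, with 2 such neighbours, it was 7.66%, and at IRF1, with 3, it was 0%. These shares also depend on how much of each window lies that close to such a 5′ end, which was not measured.

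**Figure D4:**
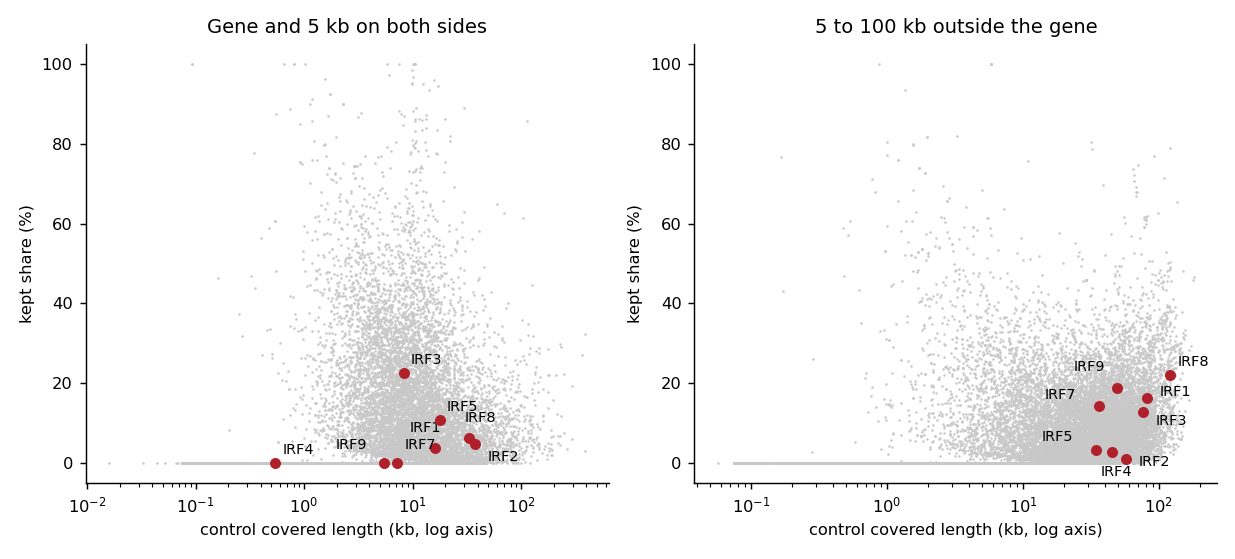
Control covered length (kb, log axis) against kept share (%) for every protein-coding gene with control peaks (grey points, 1 control and 1 SNDX-50469 library), with 5 kb on both sides of the gene (left) and from 5 to 100 kb outside it (right). The IRF genes are marked in red. IRF8 lies at the right-hand edge of the distal panel with 22.1% kept, and IRF4 lies far to the left in the gene panel with 538 bp.

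Peaks were also stitched across the gaps that ROSE bridges by default and ranked within each list by fold times length and not by reads, so that these regions are not the super enhancers of the study. In control, 6 of 8 IRF genes (IRF1, IRF2, IRF3, IRF5, IRF7 and IRF8) overlapped 1 of the 892 regions above the bend of the curve, and 20.5% of all genes did. After treatment 1 of 8 did, IRF8, and 3.91% of all genes. The control region at IRF8 ranked 21st of 24668 and was 616 kb long. In the treated list it gave way to separate regions, of which the one that counted for IRF8 was 36.1 kb long and ranked 228th of 18541. It began past the 3′ end and met only the 5 kb flank, and the region inside the gene was 206 bp long and ranked 12559th. The one 76.0 to 86.7 kb from the 5′ end was 10.8 kb long and ranked 210th. Control regions at IRF3 (602 kb, ranked 48th), IRF7 (291 kb), IRF2 (241 kb) and IRF1 (130 kb, ranked 258th) were above the bend too, as was IRF5 (171 kb). IRF4 (ranked 1584th) and IRF9 (ranked 1142nd) were below the bend in control.

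The genes that work with the IRFs were looked up as 4 lists over the gene with 5 kb on both sides. Among partners and co-regulators, 20 of 20 were lower and 4 kept nothing, with a median kept share of 9.0%. Over all genes, 98.1% were lower and 44.8% kept nothing, with a median of 2.37%, which is the background for every list here. The longest control lengths were at ETV6, an ETS repressor (230716 bp, 29.7% kept), IKZF1, which encodes Ikaros (86343 bp, 9.27% kept) and NFATC1 (50265 bp, 5.61% kept). Chosen after its value was seen, IRF2BP2, a corepressor of IRF2, kept 95.9% of 15602 bp, the highest share of this list. IRF2BP1 and IRF2BPL of the same list kept 44.7% and 17.2%. IRF2, whose gene is 86822 bp long, kept 4.71% in this window and 25.9% within 5 kb of its 5′ end. SPI1, the partner of IRF4 and IRF8, kept 39.1% of 28244 bp, and this gene was likewise chosen for its role after its value was known.

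The list of interferon receptors and kinases also holds the regulators SOCS1, SOCS3, USP18, PIAS1 and PTPN6. It was lower at 14 of 14 genes, with a median of 3.27%, and the 3 that kept nothing were SOCS1, SOCS3 and USP18. The longest were IFNLR1 (37188 bp, 11.2% kept), IFNAR2 (36285 bp, 0.672% kept) and PTPN6 (24117 bp, 35.2% kept), which encode receptor chains for interferon lambda and type I interferon and the phosphatase SHP-1. Sensors and adaptors upstream of the IRFs were lower at 18 of 18 with a control peak, 6 kept nothing, and the median was 7.14%. TBK1 (22563 bp, 2.23% kept) and IKBKE (21259 bp, 4.62% kept), the kinases that phosphorylate IRF3 and IRF7, and TLR4 (21220 bp, 35.0% kept) were the longest. Interferon-stimulated genes, the targets of the family, were lower at 32 of 32 with a control peak, out of 37. Of them 18 (56.3%) kept nothing, beside 44.8% of all genes, and the median was 0%. The longest were CIITA, the activator of MHC class II genes (45134 bp, 3.01% kept), MX2 (25497 bp, 1.78% kept) and IFI16 (14718 bp, 2.31% kept).

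The genes nearest to IRF8 in control covered length and kept share as joint ranks over 15634 genes in the 5 kb window were WASF2, SLC38A10, ADGRG5, RUNX3 and CCR3. They covered 32070 to 34927 bp in control and kept 5.95 to 6.36%, beside 32913 bp and 6.20% at IRF8.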

How the data were processed

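H3K27Ac ChIPmentation peaks of MOLM13 cells, 1 control and 1 SNDX-50469 library, were analysed. The authors deposited 1 broad peak list per library in which a peak carries a ratio (fold over background), −log10 p, −log10 q and a score, which is 10 times the −log10 q without decimals and was not used. The submitters' processing notes name Trim Galore 0.6.5, Bowtie2 2.3.4.2, Picard 2.9.0, MACS2 2.1.2 and GRCh38, whereas the study's supplementary methods name TopHat2, diffReps and ROSE. Calling options and any use of the inputs are not given in the sources used here.

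Bases under each list were intersected over each gene of RefSeq GRCh38.p14 (20037 protein-coding genes, 19675 of them with a strand) with numpy 2.4.6 and pandas 2.3.3 under Python 3.11.15. Code was tested on simulated peaks. With 1 library per condition no test was made. Named were all IRF genes, up to 10 distal peaks each at IRF8, IRF4 and IRF2 (treated peaks, and control peaks reaching a −log10 q of 5), the 3 genes of each list with the longest control covered length, and the 5 genes nearest to IRF8. Members and lists were chosen with earlier results of these data known. Start windows were found in RefSeq for 5 of 8 IRF genes. Alternatives were other peak thresholds, overlaps and windows.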

Additional observations from a re-analysis of the deposited data

How the results depend on the processing

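Depth is unknown and each condition has 1 library. No paired analysis was possible because a single library stands in each group. With both lists held to a −log10 q of at least 5, the summed kept share of the IRF genes was 0% at 5 kb and 7.61% at 100 kb, 5 of 8 genes were lower at 5 kb (46.9% of all genes), and the distal share was 0% at IRF4 and IRF2. With control cut at the smallest −log10 p seen after treatment, the shares were 10.7% at 5 kb, 18.9% at 100 kb and 6.49% distally at IRF4. With control trimmed to the treated covered length, they were 13.0% at 5 kb and 27.3% at 100 kb. Under this trimming, 4 of 8 genes were lower at 5 kb (17.6% of all genes) and 5 of 8 at 100 kb (28.9%). IRF9 (10119 against 7494 bp), IRF5 (3155 against 0 bp) and IRF4 (1780 against 0 bp) were then higher after treatment at 100 kb. The distal share at IRF2 was then 0%, and IRF4 had no distal control base and so no share. Counting control peaks with at least 50% of their length kept, the summed shares were 0% at 5 kb and 2.303% at 100 kb, and the distal shares 4.76% at IRF8, 1.54% at IRF4 and 0% at IRF2. Counting control peaks with at least 1 bp kept gave 10.5% at 5 kb, and 6.15% and 5.17% distally at IRF4 and IRF2. IRF4 kept 0.686% from 5 to 50 kb and 1.83% from 5 to 200 kb, IRF2 0.616% from 5 to 50 kb, and the family 11.5% with 20 kb on both sides. The distal share at IRF8 ran from 12.4 to 35.5% over the peak thresholds. The cause was not tested. The remaining values of the summed shares, the counts of genes and the distal shares moved by less than 1.5 times, and none reversed.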
